A study of Oryza sativa with 8 samples.

Results

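The subject is a set of 6 rice transcription factor genes, GLK1 and GLK2 of the Golden2-like group and PHR1 to PHR4 of the phosphate starvation response group. They were chosen by gene identifier, not by their values, from 40718 genes in a table of 6 leaf libraries and 38977 genes in a table of 2. All 6 were listed in both tables. Leaf RNA of 2-week-old rice (Oryza sativa) seedlings was sequenced, with 1 library in each of 8 groups. The glk1glk2 double mutant, the dgp1 mutant and their wild type DJ were each sampled after 6 days on low phosphate (LP, 10 µM KH2PO4) and under normal supply (CK). The wild-type cultivar ZH11 was sampled after 24 h without phosphate (NP) and under normal supply (CK). The labels name the mutants by gene only, and neither the alleles nor the number of plants in a library is given. In leaf RNA, fewer cells of a type and less RNA per cell cannot be told apart.

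GLK proteins are DNA-binding factors of the GARP family that switch on genes for chlorophyll synthesis and for the chlorophyll-binding antenna proteins, and so set how far a chloroplast develops. DGP1 is known in rice as a repressor of GLK activity. PHR proteins carry a related Myb-like domain together with a coiled-coil (MYB-CC) domain. They bind the promoters of phosphate starvation genes, and SPX proteins hold them back while phosphate is plentiful. PHR2 is the best known activator of this response in rice, and PHR1, PHR3 and PHR4 act beside it. PHR activity is known to be set largely through binding by SPX proteins, so that a transcript level is only one of the quantities that matter for it.

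The deposited annotation gave the Myb-like domain for all 6 genes and the MYB-CC domain for the 4 PHR genes only. GLK1 (Os06g0348800) was listed on chromosome 6 from 14078261 to 14082203, plus strand, with 1881 bases of exon. GLK2 (Os01g0239000) was on chromosome 1 from 7686901 to 7693984, minus strand, with 2702 bases of exon in a span of 7084. PHR1 (Os03g0329900) was on chromosome 3 from 12126320 to 12131242 and PHR2 (Os07g0438800) on chromosome 7 from 14753753 to 14759288, both on the plus strand. PHR3 (Os02g0139000) was on chromosome 2 from 2075629 to 2079136, minus strand, and PHR4 (Os06g0703900) on chromosome 6 from 29723508 to 29727074, plus strand. The genome build is not given in the sources used here. PHR3 overlapped the opposite-strand gene Os02g0138900 by 45 bases, and that gene reached at most 0.534 FPKM in any library. The other 5 genes overlapped no listed gene.

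Levels are FPKM, that is, reads scaled to gene length and to library size, as deposited. Recovered reads per library ran from 12525772 to 16566008, but the reads of a gene came in lumps. The most common low read number was 151 in glk1glk2_LP, 186 in glk1glk2_CK, 21 in dgp1_CK, 7 in DJ_LP and 48 in DJ_CK, and no such peak was seen in dgp1_LP or the ZH11 libraries. This number was taken as the reads of 1 original fragment, which gives about 82952 fragments for glk1glk2_LP, 76923 for glk1glk2_CK, 757467 for dgp1_CK, 2366570 for DJ_LP and 286921 for DJ_CK. In dgp1_LP and ZH11 each read was counted as 1 fragment, an upper limit. Intervals in parentheses are 95% intervals over estimated fragments. They cover counting error only, and with 1 library in a group there is no measure of variation between plants and no p-value. Of the 7 leaf markers (Rubisco small subunits, Rubisco activase, antenna and PsbS genes), none was at 0 in any library, and their summed level ran from 5263 FPKM in glk1glk2_LP to 45511.5 in dgp1_CK. Of 3 root and stem-base markers, LSI2 was at 0 throughout, RCC3 was at 0 in all libraries but DJ_CK (6.55 FPKM), and LSI1 ran from 12.2 to 63.2 FPKM.

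GLK1, the first gene targeted in the double mutant, stood at 49.3 FPKM in glk1glk2_LP, 40.9 in glk1glk2_CK, 89.2 in dgp1_LP, 273 in dgp1_CK, 129.6 in DJ_LP and 179 in DJ_CK. Both double-mutant libraries were the lowest of the 6, and dgp1_CK was the highest. In this order of levels, each step among dgp1_CK, DJ_CK, DJ_LP and dgp1_LP was larger than its counting interval, whereas dgp1_LP over glk1glk2_LP was 1.81-fold (0.979 to 3.79) and glk1glk2_LP over glk1glk2_CK 1.21-fold (0.420 to 3.65). The double-mutant values rest on 9.93 and 7.40 estimated fragments on low phosphate and under normal supply. In the separately normalised ZH11 table GLK1 stood at 171 FPKM in ZH11_NP and 149 in ZH11_CK.

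GLK2, the second targeted gene, stood at 53.0 FPKM in glk1glk2_LP, 32.2 in glk1glk2_CK, 106 in dgp1_LP, 83.4 in dgp1_CK, 86.9 in DJ_LP and 96.2 in DJ_CK. The 4 libraries with intact GLK genes lay within a narrow band, and no step between neighbours in the order exceeded its counting interval. ZH11_NP held 73.6 FPKM and ZH11_CK 63.5. Of the 35820 protein-coding genes in the larger table, 95.2% to 98.7% stood below GLK1 or GLK2 in the dgp1 and DJ libraries, so both were abundant leaf transcripts. In the double mutant 88.8% to 93.5% of genes stood below them.

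PHR1 had the flattest profile of the 6 genes across the larger table, at 50.1 FPKM in glk1glk2_LP, 32.6 in glk1glk2_CK, 25.7 in dgp1_LP, 23.5 in dgp1_CK, 25.7 in DJ_LP and 35.04 in DJ_CK. Its highest level was 2.13 times its lowest, and no neighbours in the order differed beyond their counting interval. That highest level rests on 10.7 estimated fragments (24.7 to 90.5 FPKM), so the place of PHR1 as flatter than PHR2 (2.79-fold) is not resolved. In ZH11, PHR1 stood at 30.5 FPKM without phosphate and 24.4 with it.

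PHR2, the principal activator of the phosphate starvation response, stood at 33.5 FPKM in glk1glk2_LP, 20.4 in glk1glk2_CK, 20.1 in dgp1_LP, 56.1 in dgp1_CK, 33.1 in DJ_LP and 45.1 in DJ_CK. The dgp1 mutant thus held both its highest and its lowest level, although no neighbours in the order of all 6 libraries differed beyond their interval. ZH11_NP held 32.6 FPKM and ZH11_CK 31.9.

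PHR3 was the least abundant of the set in most libraries, at 21.5 FPKM in glk1glk2_LP, 5.27 in glk1glk2_CK, 8.76 in dgp1_LP, 6.57 in dgp1_CK and 7.89 in DJ_LP, and it was listed at 0 in DJ_CK. The glk1glk2_LP value rests on 4.27 estimated fragments and the glk1glk2_CK value on 0.941. A count of 0 in DJ_CK allows a level of up to 5.96 FPKM (3 fragments), close to what the other libraries held. In ZH11, PHR3 stood at 6.14 FPKM in ZH11_NP and 11.4 in ZH11_CK.

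PHR4 had the widest listed range among the genes above 0 in every library, at 2.69 FPKM in glk1glk2_LP, 17.0 in glk1glk2_CK, 79.1 in dgp1_LP, 66.7 in dgp1_CK, 39.8 in DJ_LP and 25.2 in DJ_CK. Both dgp1 libraries stood above the other 4 libraries of that table, and the step from dgp1_CK to the next, DJ_LP, was 1.68-fold (1.27 to 2.20). The glk1glk2_LP value rests on 80 reads, fewer than the 151 taken as 1 fragment, and its counting interval reached 24.1 FPKM. The 29.3-fold range of PHR4 depends on that value, so its place ahead of GLK1 (6.67-fold) is not resolved. In ZH11_NP it stood at 15.6 FPKM and in ZH11_CK at 12.6.

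**Figure D1:**
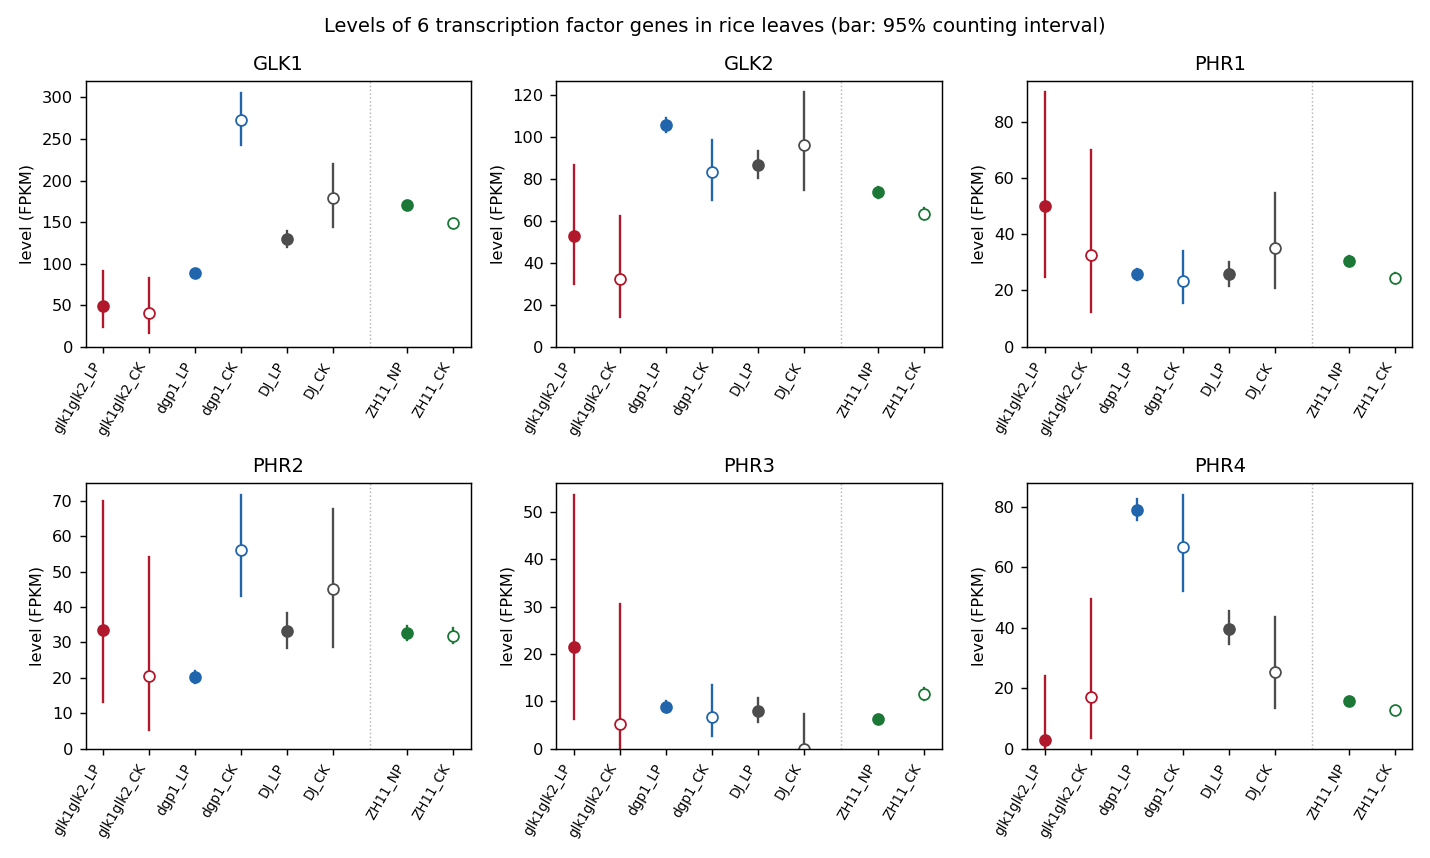
Level (FPKM, linear axis from 0) of each of the 6 genes by library, filled points on low or no phosphate and open points under normal supply, with 95% counting intervals over estimated fragments as bars; ZH11, right of the dotted line, was normalised separately. GLK1 is highest in dgp1_CK (273 FPKM) and PHR4 in the 2 dgp1 libraries (79.1 and 66.7 FPKM), and the glk1glk2 libraries have the widest bars.

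Low phosphate was first compared with normal supply within each genotype, which asks how the regulators themselves stood in leaves at the lower supply. The rule for a difference asked for 2-fold or more in FPKM + 1 and for 5 FPKM or more in 1 of the 2 libraries, and all 6 genes passed this minimum in each of the 8 comparisons. In the dgp1 mutant, GLK1 and PHR2 were both lower on low phosphate and the remaining 4 genes were within 2-fold. Over all 15600 genes tested in dgp1, 20.7% were lower and 24.0% higher (44.7% either way), so 2 of 6 is near the share of all genes.

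Against dgp1_CK, the dgp1_LP library held 3.06-fold less GLK1 (2.70 to 3.45) and 2.79-fold less PHR2 (2.11 to 3.63). GLK2, which shares targets with GLK1, was 1.27-fold higher in dgp1_LP (1.07 to 1.52). The GLK1 level was accordingly 3.27 times that of GLK2 in dgp1_CK (2.66 to 4.04) and 0.844 times in dgp1_LP (0.801 to 0.889), and dgp1_LP was the only library of the 4 with intact GLK genes in the larger table in which GLK2 stood above GLK1. PHR4, PHR1 and PHR3 differed between dgp1_LP and dgp1_CK by ratios of 1.19 (0.938 to 1.52), 1.09 (0.749 to 1.66) and 1.33 (0.643 to 3.29).

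In wild-type DJ only PHR3 passed the 2-fold limit, at 7.89 FPKM on low phosphate against 0, which is 1.32 times the 3-fragment floor, and the counting interval of the ratio begins at 1.03. Over all 15357 genes, 23.1% were higher in DJ_LP and 24.3% lower (47.4% either way). GLK1 was 1.38-fold lower in DJ_LP (1.10 to 1.72), and GLK2 had a ratio of 0.903 (0.706 to 1.17). PHR1 and PHR2 had nearly the same ratio, 0.734 for each, with intervals of 0.453 to 1.25 and 0.474 to 1.19, and PHR4 had a ratio of 1.57 (0.894 to 3.04). The log2 ratio of GLK1 lay above those of 37.4% of all genes, and that of PHR4 above 69.4%, so neither stood at an edge of the distribution. Scaling both libraries to their own recovered reads shifts the median of all genes in this comparison by 0.37 log2, and GLK1 then stands at -0.06 and GLK2 turns to 0.25. PHR4 then stands at 49.5 FPKM in DJ_LP against 23.9 in DJ_CK and passes the 2-fold limit as higher.

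The clock genes, which mark the time of day, differed between the same libraries: LHY stood at 160 FPKM in DJ_LP against 621 in DJ_CK and at 204 in dgp1_LP against 694 in dgp1_CK. Of the 7 clock genes, 1 was higher and 3 lower in DJ_LP, and 1 was higher and 2 lower in dgp1_LP, against 23.1% and 24.3% of all genes in DJ and 24.0% and 20.7% in dgp1. In glk1glk2_LP 1 was higher and 1 lower, against 23.3% and 23.1% of all genes. The time of harvest is not stated, and the part of sampling time in the differences of GLK1 and the PHR genes was not tested.

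In the double mutant, PHR3 was counted as higher and PHR4 as lower on low phosphate, against 23.3% and 23.1% of all 15007 genes (46.4% either way). The ratio was 4.08 for PHR3 (0.404 to 241), and PHR4 stood at 2.69 FPKM in glk1glk2_LP against 17.0 in glk1glk2_CK, both near or under 3 fragments. None of the 6 intervals excluded 1 here. GLK1 and GLK2 had ratios of 1.21 (0.420 to 3.65) and 1.64 (0.665 to 4.38), and PHR1 and PHR2 of 1.54 (0.522 to 4.98) and 1.64 (0.398 to 8.23). Each of the 6 intervals also included a ratio of 2, so a 2-fold higher level on low phosphate was not excluded for any of these genes.

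In ZH11, where each read was counted as 1 fragment, no member passed 2-fold after 24 h without phosphate, and few genes did: 1.61% of 15002 were higher and 3.19% lower (4.81% either way). PHR3 moved the most, 1.86-fold lower in ZH11_NP (1.55 to 2.23), and its log2 ratio of -0.80 stood above those of only 5.04% of genes. The other members were level or slightly higher: 1.25-fold for PHR1 (1.14 to 1.37), 1.24-fold for PHR4 (1.08 to 1.42), 1.16-fold for GLK2 (1.10 to 1.22), 1.15-fold for GLK1 (1.10 to 1.19) and 1.02-fold for PHR2 (0.937 to 1.12). Dose, duration and cultivar all differ between the ZH11 and DJ experiments, so these values stand beside the DJ ones without a comparison.

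**Figure D2:**
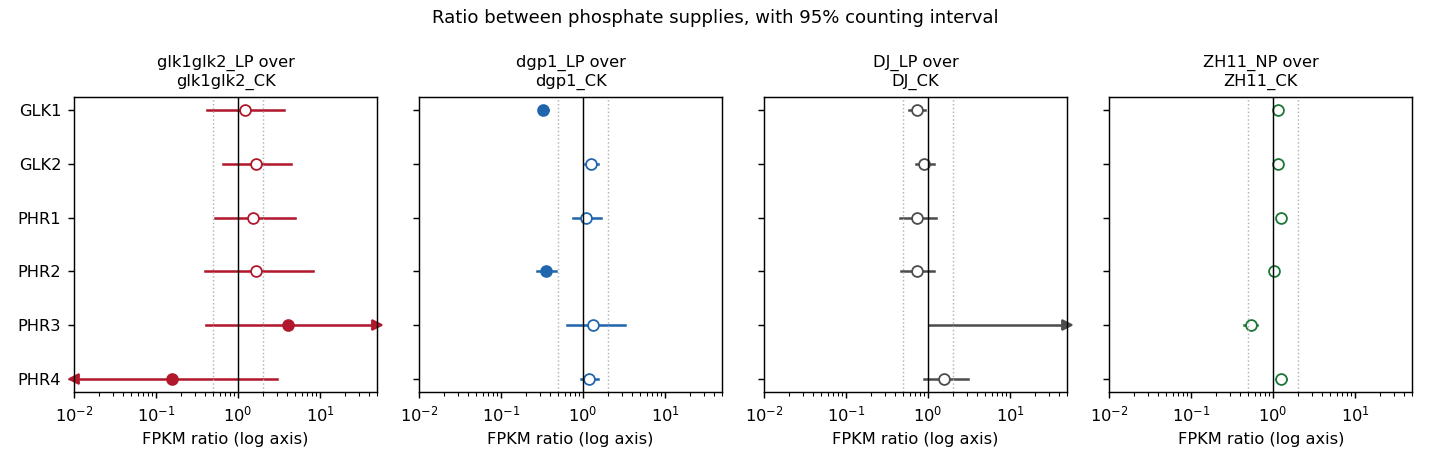
FPKM ratio (log axis) of each gene between low or no phosphate and normal supply in glk1glk2, dgp1, DJ and ZH11, with 95% counting intervals; filled points passed the 2-fold rule, dotted lines mark 2-fold, arrows run past the axis, and PHR3 in DJ has no point because DJ_CK was at 0. In dgp1, GLK1 (ratio 0.327) and PHR2 (0.359) lie left of the 2-fold line, while all 6 points of ZH11 lie between the lines.

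Under normal supply, the double mutant held less GLK transcript than DJ. GLK1 was 4.37-fold lower in glk1glk2_CK (2.07 to 10.8) and GLK2 2.98-fold lower (1.46 to 7.02). PHR2 was also counted as lower, at 2.21-fold, but its ratio of 0.452 had an interval of 0.106 to 1.37, and PHR3 as higher, at 5.27 FPKM against 0, with both values under their 3-fragment floors of 16.8 and 5.96 FPKM. PHR1 and PHR4 had ratios of 0.930 (0.311 to 2.40) and 0.675 (0.124 to 2.47). Of all 15533 genes 31.3% were lower and 27.4% higher (58.7% either way), and 3 lower and 1 higher of 6 is read against those shares.

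On low phosphate, GLK1 was 2.63-fold lower in glk1glk2_LP than in DJ_LP (1.42 to 5.52), while GLK2 had a ratio of 0.610 (0.342 to 1.01). PHR4 was 14.8-fold lower, a ratio of 0.0678 with an upper bound of 0.611, from less than 1 estimated fragment. PHR3 had a ratio of 2.72 (0.748 to 7.30) and was counted as higher, PHR1 a ratio of 1.95 (0.941 to 3.62) and PHR2 of 1.01 (0.392 to 2.16). Among all 15352 genes 26.0% were lower and 23.5% higher (49.5% either way). Transcripts of both GLK genes were thus still present in the double mutant; whether the reads lie outside an altered part of the gene is not shown by a value per gene.

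The dgp1 mutant held more PHR4 than DJ. Under normal supply PHR4 stood at 66.7 against 25.2 FPKM, 2.64-fold higher (1.44 to 5.26), and on low phosphate at 79.1 against 39.8 FPKM, 1.99-fold higher (1.73 to 2.30), just under the 2-fold limit at a log2 ratio of 0.97. PHR3 was also counted as higher in dgp1_CK, at 6.57 FPKM against 0, which is 1.10 times the 3-fragment floor, but the counting interval of the ratio begins at 0.688 and so includes 1. Of all 14557 genes 16.1% were higher in dgp1_CK and 14.1% lower (30.2% either way). These DJ libraries also serve in the glk1glk2 comparisons.

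GLK1 stood on opposite sides of DJ in the 2 supplies. It was 1.53-fold higher in dgp1_CK than in DJ_CK (1.20 to 1.95) and 1.45-fold lower in dgp1_LP than in DJ_LP (1.33 to 1.58). The first difference is smaller with both libraries scaled to their own recovered reads, at 214 FPKM in dgp1_CK against 169 in DJ_CK. No interval was computed under that scaling. GLK2 had a ratio of 0.867 under normal supply (0.645 to 1.17) and of 1.22 on low phosphate (1.12 to 1.32). PHR2 likewise had a ratio of 1.24 under normal supply (0.759 to 2.10) and was 1.65-fold lower on low phosphate (1.38 to 1.95). PHR1 had ratios of 0.671 (0.361 to 1.28) under normal supply and 1.00 (0.839 to 1.20) on low phosphate.

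No member passed 2-fold between dgp1_LP and DJ_LP, where 20.9% of 14814 genes were higher and 13.4% lower (34.3% either way). Scaling both libraries to their own recovered reads shifts the median of all genes in this comparison by -0.51 log2, and GLK1 (-1.07) and PHR2 (-1.22) then pass the limit as lower while GLK2 turns to -0.26 and PHR4 to 0.44.

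**Figure D3:**
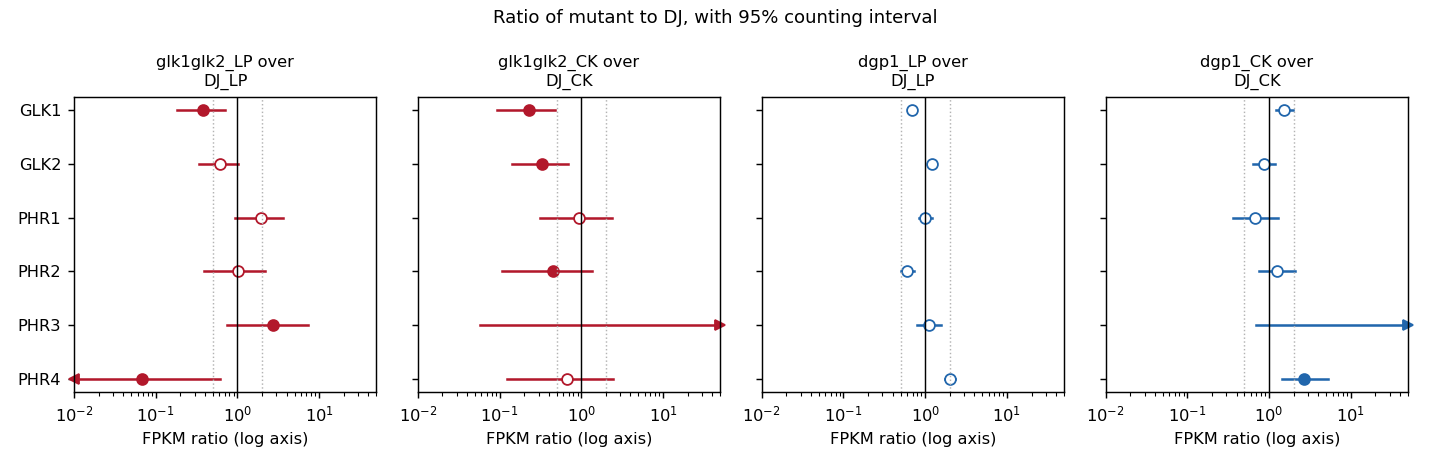
FPKM ratio (log axis) of each gene in a mutant over DJ at the same phosphate supply, with 95% counting intervals; filled points passed the 2-fold rule, dotted lines mark 2-fold, arrows run past the axis, and PHR3 has no point where DJ_CK was at 0. GLK1 lies left of 1 in both glk1glk2 panels (0.381 and 0.229), and PHR4 lies right of 1 in both dgp1 panels (1.99 and 2.64).

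The summed level of the 4 PHR genes in DJ was 106.5 FPKM in DJ_LP and 105.4 in DJ_CK, but the shares of the genes within it differed. PHR4 gave 37.3% of the sum in DJ_LP and 23.9% in DJ_CK, PHR2 31.1% and 42.8%, and PHR1 24.1% and 33.2%. PHR4 thereby stood first of the 4 in DJ_LP, and behind PHR2 and PHR1 in DJ_CK. Within DJ_LP, PHR4 over PHR1 was 1.55 (1.25 to 1.92), but PHR4 over PHR2 was 1.20 (0.981 to 1.47), so the first place is not resolved.

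In dgp1 the PHR sum was larger, at 134 FPKM on low phosphate and 153 under normal supply, and PHR4 led in both. Its share was 59.1% in dgp1_LP and 43.6% in dgp1_CK. The PHR4 level was 3.93 times that of PHR2 in dgp1_LP (3.57 to 4.34), against 1.19 times in dgp1_CK (0.836 to 1.70). PHR2, which led or came second in the other libraries of the larger table, stood behind both PHR4 and PHR1 in dgp1_LP, with PHR1 at 1.28 times its level (1.14 to 1.44).

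In the double mutant PHR1 led at both supplies, with 46.5% of a sum of 108 FPKM in glk1glk2_LP and 43.3% of 75.3 FPKM in glk1glk2_CK, but PHR1 over PHR2 was 1.496 (0.519 to 4.67) and 1.597 (0.375 to 8.14). In ZH11 the order was PHR2, PHR1, PHR4 and PHR3 at both supplies, and PHR4 stood at 0.479 times PHR2 in ZH11_NP (0.429 to 0.533) and 0.397 times in ZH11_CK (0.351 to 0.448). PHR4 thus ranked behind PHR2 in the wild type ZH11 and ahead of it in dgp1_LP, each beyond counting error.

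Set against the PHR sum, the GLK sum was 2.03 times as large in DJ_LP and 2.61 times in DJ_CK, 1.46 times in dgp1_LP and 2.33 times in dgp1_CK, and 2.88 times in ZH11_NP and 2.64 times in ZH11_CK. In glk1glk2 both sums were about equal, at 0.949 on low phosphate and 0.971 under normal supply. GLK1 gave 45.8% of the GLK sum in dgp1_LP, the lowest share of the 8 libraries, and 76.6% in dgp1_CK, the highest.

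**Figure D4:**
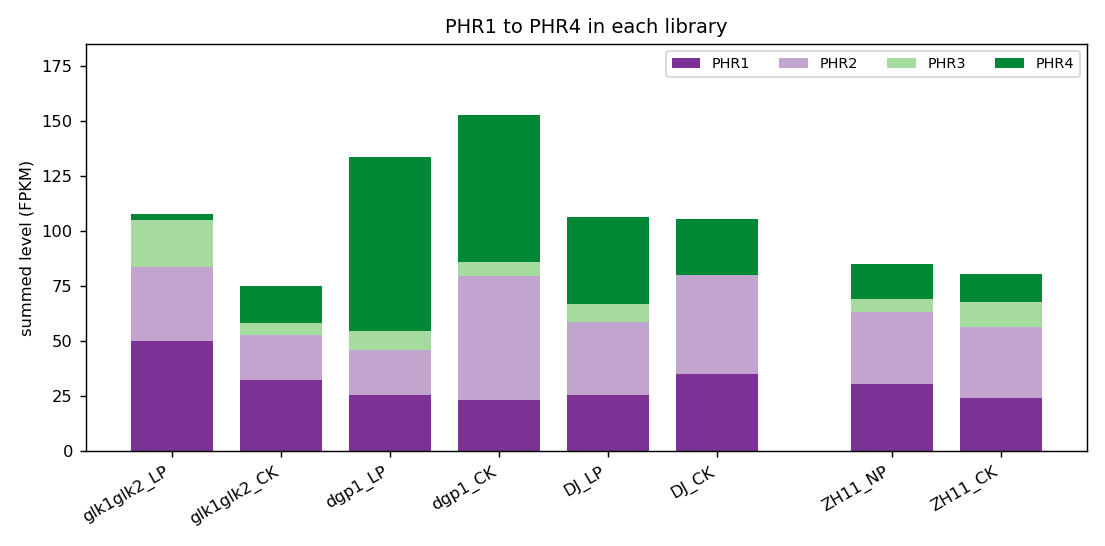
Stacked levels (FPKM, axis from 0) of PHR1, PHR2, PHR3 and PHR4 in each library, with the ZH11 pair, normalised separately, at the right. The dgp1 bars are the tallest (134 and 153 FPKM) and are made up mostly of PHR4 on low phosphate, while the DJ bars are of like height (106.5 and 105.4 FPKM).

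Pattern likeness was measured over the 6 libraries of the larger table as the root mean square difference of centred log2(FPKM + 1), which is 0 for 2 genes in parallel, among about 2385 named genes with a mean of at least 20 FPKM. GLK1 and PHR2 differed by 0.64 and GLK2 and PHR2 by 0.62, as close as GLK1 and GLK2 to each other (0.65), whereas PHR3 and PHR4 differed by 2.28. The genes nearest to GLK1 were Os10g0580200 (ADP-ribosylation factor B1C, 0.19) and Os01g0719100 (a RING zinc-finger protein, 0.20), and those nearest to GLK2 were nitrilase 1 (Os02g0635000, 0.14) and Os01g0356400 (a multidrug resistance-associated protein, 0.19). PHR1 lay nearest to SPPL1 (Os10g0393100, 0.13) and acyl-CoA-binding protein 6 (Os03g0835600, 0.14). PHR2 lay nearest to Os11g0603200 (an ABC transporter of the F family, 0.15) and Os03g0793500 (Heading date 16, a casein kinase of flowering time, 0.19). PHR3 and PHR4 had more distant nearest genes, PHR3 lying at 0.55 from Os10g0564500 (the stress-activated kinase SAPK3) and 0.68 from Os02g0643800 (small auxin-up RNA 11). PHR4 lay at 0.28 from Os01g0886900 (root UV-B sensitive 6A) and 0.49 from Os01g0662300 (ribosomal protein L12-2). These distances over 6 libraries are descriptions. They include values on few estimated fragments, for PHR4 0.530 in glk1glk2_LP and 3.02 in glk1glk2_CK, and for PHR2 6.72 and 3.68. PHR3 was at 0 in DJ_CK, so the distances of PHR3 and PHR4 depend on values near or under the floor.

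The deposited annotation lists 12 further genes with the MYB-CC domain of the PHR proteins. In DJ_LP 6 of these 12 were lower and 0 higher than in DJ_CK (median log2 ratio -0.85, against -0.05 over all genes, of which 24.3% were lower and 23.1% higher). Among the 6, the intervals of Os02g0700300, Os06g0664800 and Os08g0346500 included 1. None of PHR1 to PHR4 was lower by 2-fold, but PHR3 was at 0 in DJ_CK and could not be lower. With so few genes, PHR1 to PHR4 are not set apart from the 12. The unnamed gene Os05g0488600 was 27.0-fold lower in DJ_LP, at 6.21 against 167 FPKM, and OsMYBc, known as a regulator of a sodium transporter gene, was highest with 57.4 against 28.3 FPKM. In dgp1_LP 6 of 11 with sufficient level were lower and 2 higher than in dgp1_CK (median -1.58, all genes 0.03, of which 20.7% were lower and 24.0% higher). There RLI1, a regulator of leaf angle that SPX proteins bind, stood at 1.81 against 18.5 FPKM, 10.2-fold lower (5.82 to 17.3), and Os06g0609500 was the highest, at 11.9 against 0.169 FPKM. In glk1glk2_LP 4 of 10 were higher and 2 lower than in glk1glk2_CK (median 0.096, of all genes 23.3% higher and 23.1% lower). In ZH11_NP 1 of 9 was higher and 0 lower than in ZH11_CK (median 0.08, of all genes 1.61% higher and 3.19% lower). The higher gene in ZH11_NP was RLI1, at 43.7 against 18.3 FPKM, 2.38-fold (2.16 to 2.63). Between mutant and DJ under normal supply, 7 of 12 were lower and 0 higher in glk1glk2_CK (median -1.46, all genes -0.08, of which 31.3% were lower and 27.4% higher), and 1 of 12 was lower and 0 higher in dgp1_CK (median -0.15, all genes 0.03, of which 14.1% were lower and 16.1% higher). The count in glk1glk2_CK is limited by its depth of about 76923 estimated fragments, and 3 of the 12 genes stood at 0 there. Among the 7 lower genes, the intervals of Os02g0700300, Os05g0491500, Os06g0609500, Os06g0664800 and Os08g0346400 included 1. Counts for glk1glk2_LP rest on a similarly shallow library. On low phosphate, 3 of 11 were higher and 4 lower in glk1glk2_LP (of all genes 23.5% and 26.0%), and 3 of 11 were higher and 2 lower in dgp1_LP (of all genes 20.9% and 13.4%).

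The SPX genes code for the proteins that bind and hold back PHR factors. SPX3 was listed at 0 in all 8 libraries, and SPX5 stood at no more than 0.201 FPKM. In DJ_LP 3 of the 4 SPX genes with sufficient level were lower than in DJ_CK and 0 higher, against 24.3% and 23.1% of all genes. SPX6 was the lowest, at 1.69 against 12.0 FPKM, the interval of SPX2 (ratio 0.266) ran from 0.0811 to 1.11 and so included 1, and SPX1 stood at 11.9 against 10.5 FPKM. In dgp1_LP, SPX2 was 3.52-fold lower than in dgp1_CK (2.17 to 5.48) and no SPX gene was higher, against 20.7% of all genes lower and 24.0% higher. In ZH11_NP only 2 SPX genes had sufficient level and neither passed 2-fold, where 1.61% of all genes were higher and 3.19% lower. SPX1 stood at 5.15 against 8.88 FPKM.

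The gene lists were chosen with earlier results of these data known. Of 21 phosphate starvation genes that PHR factors are known to act on, 19 were listed in the larger table and 20 in the ZH11 table. In DJ 14 had sufficient level, of which 4 were higher on low phosphate and 5 lower, with a median log2 ratio of -0.13, where 23.1% of all genes were higher and 24.3% lower. The phosphate transporter gene PT8 was 3.71-fold higher (1.57 to 11.6) and PT4 was lower, at 1.12 against 9.77 FPKM. In dgp1, 3 of 13 were higher and 1 lower (median 0.36; of all genes 24.0% higher and 20.7% lower), with the transporter PT1 21.4-fold higher (13.8 to 35.3). In ZH11, 2 of 11 were higher and 2 lower (median 0.04, of all genes 1.61% higher and 3.19% lower). SPX-MFS2 was 5.32-fold higher in ZH11_NP (4.41 to 6.46) and PT1 2.61-fold lower (2.42 to 2.81). The long non-coding RNA IPS1, a marker of phosphate starvation, stood at 0.311 FPKM in ZH11_NP and 0.112 in ZH11_CK, under the 5 FPKM minimum. For a gene of 1 kb the 3-fragment floor was 0.175 FPKM in ZH11_NP and 0.189 in ZH11_CK, so no difference in IPS1 is read from these values. In glk1glk2, 1 of 11 was higher and 2 lower (median 0.25; of all genes 23.3% higher and 23.1% lower). Beside these counts, PHR4 was the PHR gene with the most transcript in dgp1_LP, while the first place was not resolved in DJ_LP (PHR4 and PHR2) or in ZH11_NP, where PHR1 stood at 0.934 times PHR2 (0.856 to 1.02).

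Genes known to be activated by GLK factors were set beside the GLK levels. Under normal supply, where both GLK genes were lower in glk1glk2_CK than in DJ_CK, 10 of 13 antenna genes were lower and 0 higher (median log2 ratio -1.87), and 5 of 12 chlorophyll synthesis genes were lower and 3 higher (median -0.56), where 31.3% of all genes were lower and 27.4% higher. Among these, the intervals of the lower genes CHLM, PORB and LHCA6 and of the 3 higher genes (HEMA1, CHLD and CAO2) included 1. Of the 7 leaf markers, which include CAB1R and LHCB6 of the antenna list and the Rubisco genes, 6 were lower and 0 higher in glk1glk2_CK (median -3.63). Of the 7 clock genes 4 were lower and 1 higher there, and LHY stood at 211 FPKM against 621 in DJ_CK. The part of these differences in the GLK comparison was not tested. On low phosphate 6 of 12 antenna genes were lower in glk1glk2_LP and 1 higher (median -0.90), and 7 of 11 chlorophyll synthesis genes were lower and 1 higher (median -1.69), where 26.0% of all genes were lower and 23.5% higher. Of the lower chlorophyll synthesis genes, CHLI, CHLM and PORA were at 0 in glk1glk2_LP. The intervals of their ratios reached 1.11, 1.79 and 2.14 and so included 1. Of the leaf markers 4 were lower and 2 higher (median -1.06). The antenna genes ranged from LHCA1, 3.11-fold lower in glk1glk2_LP (2.45 to 3.997), to LHCB6, which stood at 54.0 FPKM there and 2.00 in DJ_LP.

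In dgp1_CK, where GLK1 stood at 1.53 times DJ_CK, 5 of 13 antenna genes and 5 of 11 chlorophyll synthesis genes were higher and none lower, against 16.1% and 14.1% of all genes, and of the leaf markers 2 were higher and 0 lower (median -0.02). In dgp1_LP all 13 antenna genes (median 2.26) and 10 of 11 chlorophyll synthesis genes (median 2.49) were higher than in DJ_LP, and none lower, against 20.9% of all genes higher, while GLK1 stood at 0.688 and GLK2 at 1.22 times DJ_LP. Of the 7 leaf markers 6 were higher and 0 lower in dgp1_LP (median 1.83). CAB2R, a photosystem II antenna gene of a multigene family whose similar members may share reads, was 22.5-fold higher in dgp1_LP (21.6 to 23.5) and PORA, a protochlorophyllide reductase, 20.7-fold (15.6 to 28.0). Own-read scaling, with its median shift of -0.51 log2 here, leaves 7 chlorophyll synthesis genes higher and 1 lower, and 12 antenna genes higher. The share of all genes was not computed under that scaling, so the 20.9% does not apply to these counts.

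**Figure D5:**
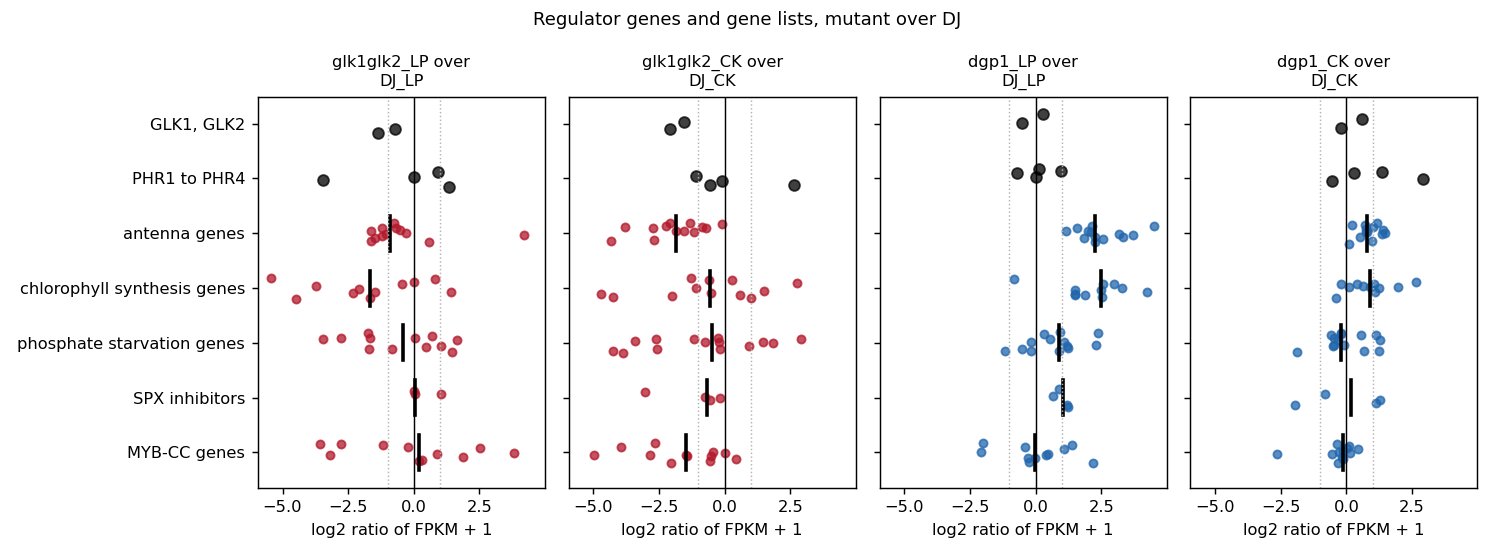
Log2 ratio of FPKM + 1 in a mutant over DJ for the regulator genes (black) and for members of 5 gene lists with at least 5 FPKM in 1 of the libraries (coloured, vertical bar at the median, vertical jitter only for visibility); dotted lines mark 2-fold. In dgp1_LP over DJ_LP every antenna gene lies right of the 2-fold line (median 2.26) while GLK1 and GLK2 lie between the lines at -0.53 and 0.28.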

How the data were processed

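Leaf RNA of 8 libraries, 1 per group, was sequenced with a directional kit, per the labels' protocols; the aligner, the genome build and the counting setting are not given in the sources used here. The authors deposited a value per gene, taken here as FPKM because value times gene length is a whole multiple of 1 step in each library for at least 99.9958% of values above 0 (tolerance 0.01), although the header names no unit. The 2 tables were normalised separately and were compared only within a table.

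From these values, reads were recovered, and the most common read number between 5 and 600 (window of 10%) was taken as the reads of 1 original fragment. Where no peak was found, 1 read was taken as 1 fragment. That reading of the peaks is an inference from the values. Ratios are of FPKM, and log2 ratios of FPKM with a pseudocount of 1. A gene was counted at 2-fold or more with at least 5 FPKM in 1 of 2 libraries. Exact conditional binomial 95% intervals over estimated fragments, and floors of 3 fragments, cover counting error only. No test was run, since each group has 1 library. The steps were tested on simulated data.

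The members and lists were chosen with earlier results of these data known. Of each list, the genes named are those with the highest and lowest log2 ratio in a comparison. LHY, SPX2 in DJ, SPX3, SPX5, IPS1 and the list genes named because their interval included 1 were named after their values were seen. For likeness, the 2 nearest genes with a mean of at least 20 FPKM are named. The planned list of GARP proteins was replaced by genes whose deposited description names the MYB-CC domain, and planned reference symbols by names in the deposited table, since the reference table paired none of the identifiers. GDPD2 was not matched. Alternatives were other pseudocounts, filters and scalings. Python 3.11.15, numpy 2.4.6, pandas 2.3.3 and scipy 1.17.1 were used.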

Additional observations from a re-analysis of the deposited data

Results flagged for a closer look

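The low-phosphate response, low phosphate over normal supply on the log2 FPKM scale, differed between dgp1 and DJ beyond counting error for 3 of the 5 genes with a ratio in both genotypes. The share of all genes that differ in this way was not computed, so the count is not a result about these genes. Between supplies, 44.7% of all genes in dgp1 and 47.4% in DJ passed 2-fold. Each read of dgp1_LP was counted as 1 fragment, an upper limit. Between glk1glk2 and DJ the interval of the difference included 0 for each of the 5 genes. For GLK1 the response was -1.61 in dgp1 and -0.46 in DJ, a difference of -1.15 (95% interval -1.51 to -0.79). For PHR2 it was -1.48 in dgp1 and -0.45 in DJ, a difference of -1.03 (-1.77 to -0.30). For GLK2 it was 0.34 in dgp1 and -0.15 in DJ, a difference of 0.49 (0.06 to 0.92). Under own-read scaling the differences were -1.42 for GLK1 (-1.78 to -1.07), -1.31 for PHR2 (-2.04 to -0.58) and 0.21 for GLK2 (-0.22 to 0.65), the last of which includes 0. With 1 library in a group, variation between plants was not measured, and the difference was not tested against it.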

How the results depend on the processing

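No paired analysis was possible because each group has 1 library, and no library could be left out. Of 48 counts of the 6 genes under alternatives, 44 stayed within 1.5 times the value reported. In DJ_LP over DJ_CK, 0 genes were counted with a minimum of 10 FPKM and 2 (PHR3 and PHR4) when both libraries were scaled to their own reads, against 1. In dgp1_CK over DJ_CK, 1 was counted with the minimum of 10 FPKM, against 2. In dgp1_LP over DJ_LP, 2 were counted with own-read scaling, against 0. The shares of all genes were not computed under these alternatives. Of 288 ratios of single genes under alternatives, 278 kept within counting error, 10 moved, and no gene counted at 2-fold changed sign. Own-read scaling moved the median of all genes by 0.37 in DJ_LP over DJ_CK, 0.12 in dgp1_LP over dgp1_CK, -0.26 in dgp1_CK over DJ_CK, 0.37 in glk1glk2_CK over DJ_CK and -0.51 in dgp1_LP over DJ_LP (log2). Of ratios under 2-fold, it turned GLK2 in DJ to 0.25, PHR1 in glk1glk2_CK over DJ_CK to 0.29, and GLK2 (-0.26), PHR1 (-0.52) and PHR3 (-0.35) in dgp1_LP over DJ_LP. Of 768 list counts, 706 stayed within 1.5 times and 62 moved. Median-of-ratios factors lay between 0.993 and 1.05. The intervals rest on the fragment estimate: 20 of 48 excluded 1 as reported, 25 with the further, lower peaks taken as 1 fragment, a choice made after seeing the data, and 42 if every read were a fragment. The glk1glk2 libraries limit the most, with 82952 estimated fragments on low phosphate and 76923 under normal supply.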
